A study of Mus musculus with 2 samples.

Results

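A population of macrophages with high Mrc1, F13a1, Cbr2 and Folr2 was examined in injured tibialis anterior muscle of mice. Its members were chosen in steps from barcodes with at least 5000 UMIs (unique molecular identifiers, so that PCR copies of one captured molecule count once) and at most 10% mitochondrial UMIs. A macrophage had to hold at least 3 UMIs over Csf1r, Adgre1 and Fcgr1, at most 1 UMI over Pdgfra, Cdh5 and Cdh15, and at most 4 UMIs over the proliferation genes Mki67 and Top2a. Of the 7365 macrophages left, both libraries pooled, the top 15% by UMIs per 10000 of F13a1, Cbr2, Mrc1 and Folr2 together were the members, 1105 cells of the 13531 barcodes with the UMI minimum. The remaining 6260 cells are called the other macrophages.

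Single cells were sequenced in 2 libraries (10x Genomics, 3' v2 chemistry), 1 from the conditional Setdb1 knockout mouse model (KO) and 1 from wild-type mice (WT), both 8 to 12 weeks old. Setdb1 encodes a methyltransferase for lysine 9 of histone H3, and the title of the series asks about SETDB1 in muscle stem cells of regenerating muscle. Injured muscle was digested with collagenase and dispase, and cells were sorted after Hoechst and propidium iodide staining. Which Cre line drove the deletion, how the muscle was injured, when it was taken and how many mice were pooled are not stated in the labels. With 1 library per genotype there is no replicate: no p-values were computed, all intervals are 95% intervals that cover counting error only, and a difference between the KO and WT values is a difference between these libraries.

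Macrophages of injured muscle include cells derived from blood monocytes, which clear debris and then change state as repair proceeds, and cells resident in the tissue before injury. Resident macrophages that lie along vessels are known for the hyaluronan receptor Lyve1, the phosphatidylserine receptor Timd4, the haemoglobin-haptoglobin receptor Cd163 and Folr2. Of the genes that chose the members, Mrc1 encodes the mannose receptor CD206, F13a1 the catalytic A chain of coagulation factor XIII, Cbr2 a carbonyl reductase and Folr2 the folate receptor beta.

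The KO library held 138667420 UMIs and the WT library 121703522 UMIs over 55487 genes. Macrophages numbered 3862 in the KO and 3503 in the WT library, and no member barcode occurred in both libraries. Members had a median of 11943 UMIs per cell in the KO and 10612.5 in the WT library, against 11453 and 11655 in other macrophages. Their median mitochondrial share was 1.285% in KO and 1.70% in WT members, against 0.948% and 1.09% in other macrophages. Setdb1, whose 3' counts need not lie in the deleted part and so do not check the labels, had 30.2 CPM (counts per 1000000 UMIs summed over a class) in KO members and 23.3 CPM in WT members, with a ratio of 1.299 (1.04 to 1.63). In other macrophages it had 18.2 CPM in the KO and 15.5 CPM in the WT library.

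Members made up 641 of the KO macrophages, 16.6% (Clopper-Pearson interval 15.4% to 17.8%), and 464 of the WT macrophages, 13.2% (12.1% to 14.4%). The KO share was 1.25 times the WT share (1.11 to 1.42). That ratio moved with the choice of genes: it was 1.05 when Mrc1 was left out of the sum and 1.56 when Folr2 was left out. It was also 1.07 at a minimum of 2000 UMIs and 1.57 at a minimum of 10000 UMIs. The summed markers formed a continuous range with no gap at the bound: the 3 members just inside it had 21.5005, 21.4891 and 21.4886 UMIs per 10000, and the 3 cells just outside had 21.4847, 21.479 and 21.4652. The median was 34.8 in KO and 32.7 in WT members, against 4.80 in KO and 3.27 in WT other macrophages.

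**Figure D1:**
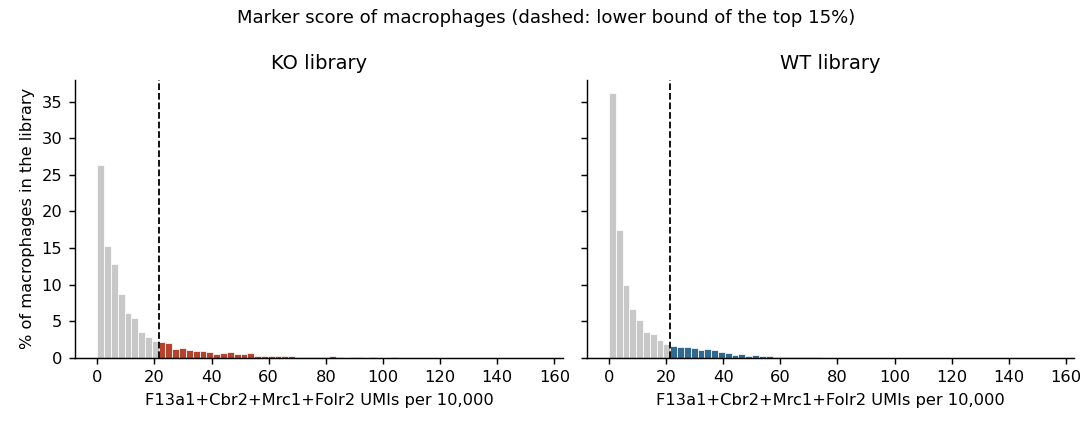
Distribution of F13a1, Cbr2, Mrc1 and Folr2 UMIs per 10000 (x axis) among the macrophages of the KO library (left) and the WT library (right), as the percentage of each library's macrophages (y axis) in bins of equal width. Coloured bars right of the dashed bound are the members, 16.6% of KO and 13.2% of WT macrophages, and no gap in the distribution marks the bound.

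These 4 genes chose the members, so their levels describe the choice and are no finding. Mrc1 had 1446 CPM in KO and 1002 CPM in WT members, against 266 and 171 CPM in other macrophages. F13a1 had 1006 CPM in KO and 661 CPM in WT members, against 123 and 59.4 CPM. The mix of the 4 genes differed between the libraries. Folr2 had 768 CPM in KO and 1132 CPM in WT members, the reverse order of F13a1 and Mrc1, while Cbr2 was close to even at 769 CPM in KO and 739 CPM in WT members. Mrc1 was the highest of the 4 in 49.9% of KO and 34.7% of WT members, and Folr2 in 13.9% of KO and 40.5% of WT members. Other macrophages had the same order, with KO/WT ratios of 1.55 for Mrc1, 2.06 for F13a1, 0.946 for Cbr2 and 0.774 for Folr2.

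Members mostly carried the whole set: 87.4% of KO and 90.7% of WT members had at least 1 UMI of all 4 genes, without thinning. With each cell reduced to 5000 randomly drawn UMIs, F13a1 was detected in 94.4% of KO and 87.5% of WT members, against 33.6% and 19.5% of other macrophages. In fibro-adipogenic barcodes, which should lack the gene, the thinned share was 1.52% in the KO and 1.09% in the WT library, although these cells were deeper (median 30558.5 and 23195 UMIs before thinning). When 1 gene was left out of the sum and the top 15% chosen again by the other 3, the cells so chosen still had more of the gene left out. F13a1 was then 6.71-fold higher than in the remaining macrophages of the KO and 9.24-fold higher in the WT library, Cbr2 8.398-fold and 8.413-fold, Mrc1 4.003-fold and 4.281-fold, and Folr2 3.42-fold and 3.83-fold. Across all macrophages of a library the Spearman correlations between pairs of the 4 genes were 0.280 to 0.484 in the KO (3862 cells) and 0.364 to 0.511 in the WT library (3503 cells), as a description of cells that share a library and were scaled to the same depth. Within the members, which the sum of the 4 genes chose, they were -0.161 to 0.359 in the KO and -0.311 to 0.260 in the WT library.

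Because the 4 genes chose the members, the 250 bases before their start sites are shown (RefSeq start sites, GRCm38.p6, given 5′ to 3′ on the gene's strand). Capitals mark the core letters bound by PU.1, the macrophage transcription factor encoded by Spi1, which are GAGGAA on either strand. The windows are chr13:37050245-37050494 on the minus strand for the first of 2 F13a1 starts, chr11:120732022-120732271 on the minus strand for Cbr2, chr2:14229164-14229413 on the plus strand for Mrc1, and chr7:101857191-101857440 on the minus strand for the first of 2 Folr2 starts.
F13a1: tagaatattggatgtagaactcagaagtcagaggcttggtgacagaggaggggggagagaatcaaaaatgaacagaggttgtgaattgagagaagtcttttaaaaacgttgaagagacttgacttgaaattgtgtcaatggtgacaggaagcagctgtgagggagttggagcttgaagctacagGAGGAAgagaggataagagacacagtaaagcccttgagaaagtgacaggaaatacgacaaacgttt
Cbr2: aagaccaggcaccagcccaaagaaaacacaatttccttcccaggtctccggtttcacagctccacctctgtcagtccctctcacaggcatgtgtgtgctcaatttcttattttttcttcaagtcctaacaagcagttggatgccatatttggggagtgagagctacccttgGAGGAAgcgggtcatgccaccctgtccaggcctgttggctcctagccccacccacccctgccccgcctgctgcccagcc
Mrc1: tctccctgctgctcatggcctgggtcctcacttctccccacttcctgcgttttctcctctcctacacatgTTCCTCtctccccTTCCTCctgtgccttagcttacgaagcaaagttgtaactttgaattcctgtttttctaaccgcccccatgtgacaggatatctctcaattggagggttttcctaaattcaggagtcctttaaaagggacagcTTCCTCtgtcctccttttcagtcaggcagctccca
Folr2: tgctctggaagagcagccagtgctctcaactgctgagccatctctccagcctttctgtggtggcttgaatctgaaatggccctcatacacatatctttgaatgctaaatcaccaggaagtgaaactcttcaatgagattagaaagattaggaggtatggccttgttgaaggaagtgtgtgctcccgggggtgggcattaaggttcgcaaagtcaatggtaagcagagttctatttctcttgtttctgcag
The core letters occurred 1 time before F13a1, 1 time before Cbr2 and 3 times before Mrc1, and were in neither of the Folr2 windows nor in the window of the second F13a1 start. The MAF core letters TGCTGA, searched on both strands, occurred 1 time in each Folr2 window and in none of the others, and 16.1% of all windows held it. Of 32851 mouse promoter windows of this length, 23.25% held them, so a match is common among promoters and is a description only. Spi1 itself had 440.0 CPM in KO and 457 CPM in WT members, against 463 and 483 CPM in other macrophages.

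Members kept the genes shared by macrophages. Of 16 such genes none was at least 2-fold higher in members of both libraries and 1, the protease Ctss, was at least 2-fold lower in both. The complement gene C1qa had 6954 CPM in KO and 7848 CPM in WT members, against 5848 and 6021 CPM in other macrophages, and the lysozyme gene Lyz2 had 13622 CPM in KO and 13274 CPM in WT members, against 15159.7 and 14277 CPM.

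Setting members against other macrophages compares cells with a rule that sorted them, so the following values describe the members and no test was made. Of 2925 genes with at least 50 CPM in 1 of the sums and enough UMIs, 84 (2.87%) were at least 2-fold higher in members in both libraries and 67 (2.29%) at least 2-fold lower in both. Within single libraries 3.11% were at least 2-fold higher and 2.53% at least 2-fold lower in KO members, and 3.86% and 3.38% in WT members. With median-of-ratios scaling, which shifted the log2 ratios by 0.10 in the KO and 0.13 in the WT library, these were 58 and 86 genes. The median log2 ratio over all tested genes was 0.05 in each library.

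Most tissue-resident genes past the filter were higher in members. Of 23 listed, 16 passed the filter, and 15 of these were at least 2-fold higher in both libraries (background 2.87%), with a median log2 ratio of 1.74 in the KO and 1.81 in the WT library. The exception, the selenium carrier Selenop, was 1.59-fold and 1.53-fold higher. Of the 16, 7 reached 50 CPM in members alone, among them Lyve1, Cd163, Ccl24 and Fcna, and so had to be higher there. Of the other 9, which reached it in other macrophages too, 8 were at least 2-fold higher in both libraries. Of the 7 genes below the filter, Timd4 had 4.58 CPM in KO and 4.23 CPM in WT members, against 1.82 and 2.55 CPM in other macrophages.

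Lyve1, which passed the filter through KO members alone, had 52.2 CPM in KO and 40.0 CPM in WT members, against 0.664 and 0.481 CPM in other macrophages. Yet most members lacked it at this depth. With cells thinned to 5000 UMIs, Lyve1 was detected in 9.98% of KO members (7.77% to 12.6%) and 8.41% of WT members (6.05% to 11.3%), against 0.217% and 0.165% of other macrophages, and in 14.5% of KO and 12.1% of WT members without thinning. The background in thinned fibro-adipogenic barcodes was 0 of 198 in the KO library, which allows a share of up to 1.52% (3 counts), and 0.364% in the WT library. Cd163 had 97.7 CPM in KO and 81.5 CPM in WT members, against 2.31 and 3.95 CPM in other macrophages. It was detected in 19.97% of thinned KO and 18.3% of thinned WT members, so each gene was found in a minority of the members.

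Members with a Lyve1 UMI numbered 93 in the KO and 56 in the WT library. In KO members with Lyve1 several other genes were higher than in KO members without it: Cd163 had 279 CPM with and 60.3 CPM without, the endothelin receptor Ednrb 349 and 101 CPM, and the complement receptor Vsig4 60.8 and 5.68 CPM. In WT members Cd163 had 142 CPM with and 72.6 CPM without Lyve1, and Ednrb 124 and 94.0 CPM. The split was smaller or not detectable for some other genes in WT members: the ratio with over without Lyve1 was 1.70 for Vsig4 (0.307 to 6.29), 1.06 for Ccl24 (0.820 to 1.35) and 1.04 for Clec10a (0.872 to 1.23). For the scarce Timd4 it was 3.17 in WT members (1.09 to 8.25), on 7 UMIs with and 15 UMIs without Lyve1, and 3.69 in KO members (1.80 to 7.43). Class II genes ran the other way in each library. H2-Aa had 560.2 CPM in KO members with and 1189.8 CPM in KO members without Lyve1, and 382 and 1047 CPM in WT members. The matrix glycoprotein gene Spp1 had 423 CPM in KO members with and 1335 CPM in KO members without Lyve1, and 266 and 922 CPM in WT members. Ccl8 did not follow this split: it had 6366 CPM with and 6445 CPM without Lyve1 in KO members, and 5599 and 7241 CPM in WT members. KO members with Lyve1 had a median of 52.3 marker UMIs per 10000 and those without it 32.4, against 41.5 and 31.3 in WT members, so these cells also sat higher on the sum that chose the members.

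Chemokine genes of the CC family were the second group that stood higher. The gene lists overlap, so the same gene can be counted in several of them. Ccl8 and Ccl24 are also in the tissue-resident list, and Lyve1 and Cd163 are in both the tissue-resident and scavenger lists. Cd163 and Clec10a are in both the scavenger and alternative activation lists. Of 13 CC chemokine and receptor genes past the filter, 8 were at least 2-fold higher in members of both libraries and 1, Ccl5, at least 2-fold lower in both, against 2.87% and 2.29% of all genes tested. Of these, Ccl24 reached 50 CPM in members alone and so had to be higher there. Ccl5 reached it in other macrophages alone and so had to be lower in members of at least 1 library. Ccl8, which encodes a chemoattractant for leukocytes, was by far the most abundant, with 6432 CPM in KO and 7030 CPM in WT members, against 1043 and 973 CPM in other macrophages. It was detected in 86.4% of thinned KO and 90.7% of thinned WT members, against 48.0% and 45.5% of other macrophages. Fibro-adipogenic barcodes held it in 28.3% of KO and 28.0% of WT cells. Ccl7 had 882 CPM in KO and 1000.4 CPM in WT members, against 177 and 190.1 CPM in other macrophages, and Ccl2, a ligand of the monocyte receptor Ccr2, 757 and 1023 CPM, against 228 and 269 CPM. Ccl24, an attractant of eosinophils, had 72.7 CPM in KO and 107 CPM in WT members, against 12.0 and 17.9 CPM. The receptor Ccr1 had 163 CPM in KO and 125 CPM in WT members, against 53.8 and 31.4 CPM.

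Uptake, complement and growth factor genes were mixed, and their counts stand against the same 2.87% higher and 2.29% lower of all genes tested. Of the genes at least 2-fold higher, 4 of 6 in the scavenger, 2 of 3 in the complement and 3 of 4 in the alternative activation list reached 50 CPM in members alone and so had to be higher there. The same held for Hbegf, the only growth factor gene at least 2-fold higher in both libraries. Among scavenger and endocytic genes 6 of 12 were at least 2-fold higher in both libraries, among them the endocytic adaptor Dab2 with 732 CPM in KO and 643 CPM in WT members against 233 and 167 CPM in other macrophages, and 1, the beta-glucan receptor Clec7a, at least 2-fold lower. Gas6, which bridges dying cells to the receptor Mertk, had 502 CPM in KO and 432 CPM in WT members, against 133 and 112 CPM, while the bridging protein gene Mfge8 had 11.4 CPM in KO and 8.84 CPM in WT members, against 70.2 and 61.8 CPM. Mfge8 reached 50 CPM in other macrophages alone and so had to be lower in members of at least 1 library. Mertk was near even, with 62.9 CPM in KO and 57.3 CPM in WT members, against 56.8 and 48.0 CPM. Of 11 complement genes, 3 were at least 2-fold higher in both libraries, among them C4b with 118 CPM in KO and 107 CPM in WT members against 20.6 and 17.3 CPM in other macrophages. Haem oxygenase Hmox1 had 1033 CPM in KO and 963.5 CPM in WT members, against 519.7 and 465 CPM. Of 11 growth factor genes, 4 had a ratio above 1 and 7 below 1 in each library, and 1, Hbegf, was at least 2-fold higher and 1, Gpnmb, at least 2-fold lower in both. Igf1, a growth factor for muscle, had 410.4 CPM in KO and 386 CPM in WT members, against 241 and 248 CPM, and the EGF receptor ligand Hbegf 108 and 63.2 CPM, against 39.1 and 23.5 CPM. Of 8 genes linked to alternative activation, 4 were at least 2-fold higher in both libraries, Cd163, Il4ra, Mgl2 and Clec10a, and 2, Chil3 and Tgm2, at least 2-fold lower. Chil3 and Tgm2 reached 50 CPM in other macrophages alone and so had to be lower in members of at least 1 library. The lectin gene Clec10a had 243 CPM in KO and 232 CPM in WT members, against 44.8 and 42.0 CPM.

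The transcription factor gene Maf was the only one of 15 macrophage factors at least 2-fold higher in both libraries, with 1139.5 CPM in KO and 1010.0 CPM in WT members, against 455 and 360.4 CPM in other macrophages. Monocyte genes were mixed: of 8 past the filter, 2 had a ratio above 1 in each library, 6 had one below 1, and 1, Chil3, was at least 2-fold lower in both. Chil3 passed the filter through other macrophages alone, so this direction was set by the filter in at least 1 library. Ccr2, the receptor of blood monocytes, was no lower in members, with 326 CPM in KO and 265 CPM in WT members, against 234 and 212 CPM. Ly6c2, the gene of the monocyte surface protein Ly6C, was lower, with 56.0 CPM in KO and 77.5 CPM in WT members, against 99.3 and 278 CPM. Plac8 ran the other way, 2.28-fold higher in KO and 1.79-fold higher in WT members than in other macrophages.

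Many class II and some lipid handling genes were lower. Of 11 genes in a list of class II genes, Cx3cr1 and genes found with them (Cd9, Cd72, Cd81, Itgax among these), 8 were at least 2-fold lower in both libraries (background 2.29%), with median log2 ratios of -1.78 in the KO and -1.95 in the WT library. The class II chain gene H2-Aa had 1082 CPM in KO and 962 CPM in WT members, against 3848 and 3969 CPM in other macrophages, and the invariant chain gene Cd74 2209 and 2177 CPM, against 7611 and 8401 CPM. Of 15 lipid handling genes, 4 were at least 2-fold lower in both libraries, against 2.29% of all genes tested, and the median log2 ratio was -0.53 in the KO and -0.44 in the WT library. Gpnmb, a glycoprotein of phagocytic macrophages, had 181 CPM in KO and 136 CPM in WT members, against 1162 and 1140 CPM. The fatty acid binding protein gene Fabp5 had 759.9 CPM in KO and 608 CPM in WT members, against 2834 and 2987 CPM. Apoe, the most abundant gene of this list, had 29091 CPM in KO and 26962 CPM in WT members, against 36659.8 and 32068 CPM. The integrin gene Itgax, which encodes CD11c, had 7.92 CPM in KO and 1.92 CPM in WT members, against 51.6 and 49.3 CPM. Itgax passed the filter through other KO macrophages alone, so in the KO library it had to be lower in members. Cd72 reached 50 CPM in other macrophages alone and so had to be lower in members of at least 1 library.

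The genes ranked highest in members also included Ednrb, with 143 CPM in KO and 97.8 CPM in WT members against 13.2 and 10.8 CPM in other macrophages, and the ficolin gene Fcna, with 59.2 and 67.7 CPM against 8.68 and 12.3 CPM. Ednrb and Fcna reached 50 CPM in members alone and so had to be higher there. The genes ranked lowest included the aspartic protease gene Napsa, with 13.5 CPM in KO and 11.7 CPM in WT members against 119 and 140.2 CPM, and the phosphatase gene Acp5, with 49.3 and 45.9 CPM against 237 and 297 CPM. Napsa and Acp5 reached 50 CPM in other macrophages alone and so had to be lower in members of at least 1 library. Among 18 lysosomal genes, 2 were at least 2-fold lower in both libraries, among them Ctss, and none was at least 2-fold higher, against 2.29% and 2.87% of all genes tested. Among 22 immediate early and heat shock genes, whose level can move with tissue digestion, none was past 2-fold in both libraries.

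**Figure D2:**
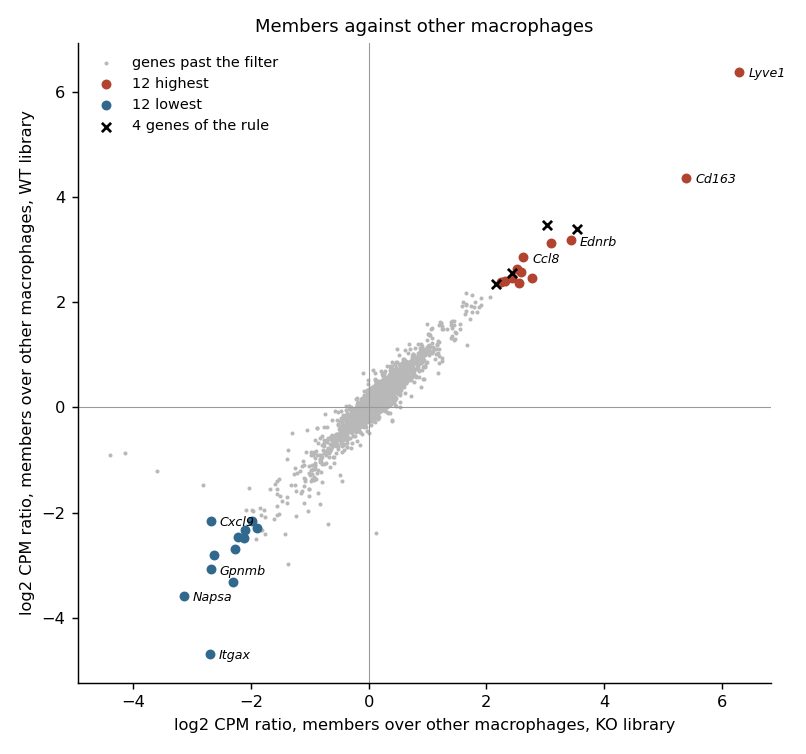
Log2 CPM ratio of members over other macrophages in the KO library (x axis) and the WT library (y axis), with each grey point a gene past the filter. Red and blue points are the 12 highest and 12 lowest named genes, which lie on the same side of 0 in both libraries, and crosses are the 4 genes that chose the members, shown for scale.

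Levels of these genes already changed along the marker sum outside the members, and some changed more across the bound of the members than before it. Clec10a had 86.3 CPM in KO and 92.2 CPM in WT macrophages between percentiles 75 and 85, just outside the members. It had 171 and 206 CPM between percentiles 85 and 95, and 358 and 307 CPM above percentile 95. Lyve1 had 1.14 and 3.21 CPM, then 13.1 and 13.2 CPM, then 114 and 117 CPM in these bands, at most 1.14 CPM in KO macrophages below the bound, so it was concentrated in the top band. Ednrb had 26.1 CPM in KO and 39.0 CPM in WT macrophages just outside the bound and 91.2 and 78.2 CPM just inside it. H2-Aa declined through all bands, with 7448 CPM in KO and 7426 CPM in WT macrophages below percentile 10 and 548 and 509 CPM above percentile 95. Gpnmb was highest between percentiles 25 and 50, at 1386 CPM in KO and 1365 CPM in WT macrophages, and had 76.0 and 23.2 CPM above percentile 95.

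**Figure D3:**
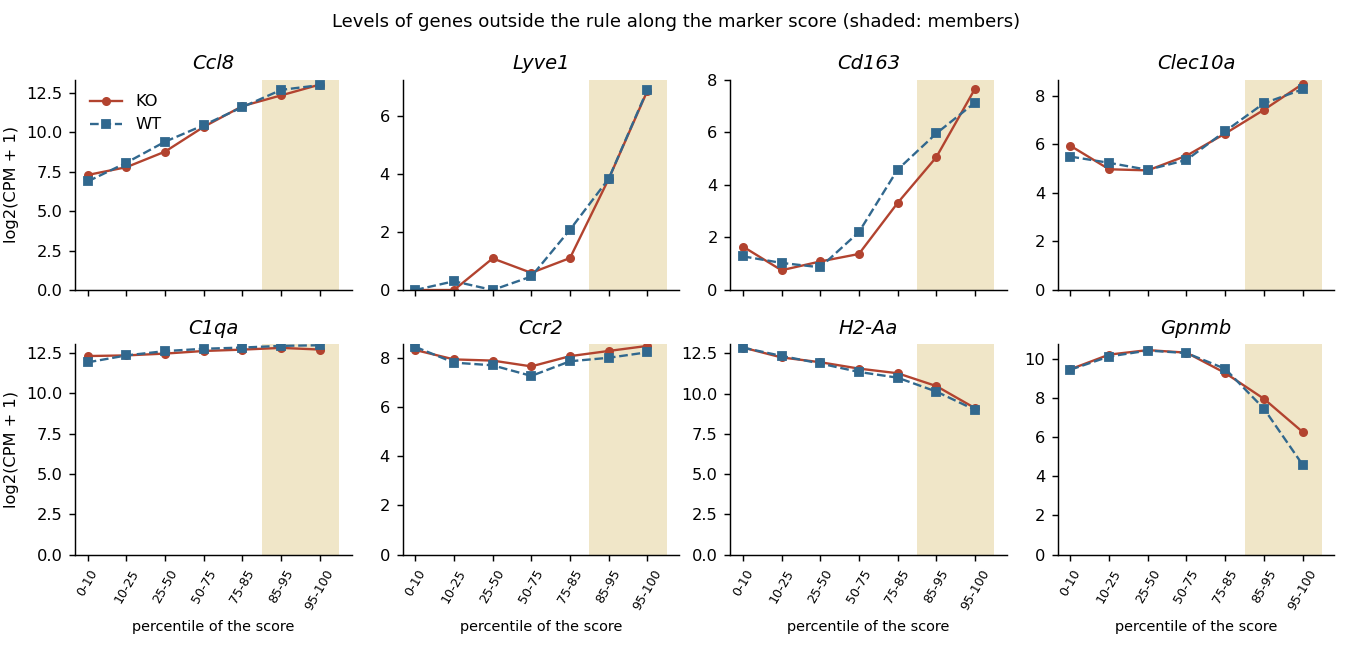
Levels as log2(CPM + 1) (y axis) of 8 genes outside the rule in bands of the marker sum (x axis, percentile over both libraries), for the KO library (red circles) and the WT library (blue squares). The shaded bands are the members. Ccl8, Lyve1, Cd163 and Clec10a were highest in the top band, H2-Aa and Gpnmb lowest there, and C1qa and Ccr2 varied over a smaller range.

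The overlap with other top 15% sets, each chosen the same way from the same macrophages by other genes, differed widely. The set by Lyve1, Timd4, Cd163 and Gas6 held 59.6% of KO and 58.2% of WT members, where it held 16.5% of all KO and 13.3% of all WT macrophages. These shared cells were 59.9% of that set in the KO and 57.8% in the WT library. Gas6 made up most of this sum in members, so the overlap is mainly one with cells high in Gas6. KO members held 4055 UMIs of Gas6, against 789 of Cd163, 422 of Lyve1 and 37 of Timd4. WT members held 2247, 424, 208 and 22 UMIs of these genes. The set by Cx3cr1, H2-Aa, H2-Ab1 and H2-Eb1 held 1.09% of KO and 1.51% of WT members, and the set by Gpnmb, Spp1, Fabp5 and Trem2 2.03% and 2.37%. The set by Ly6c2 and the monocyte gene Plac8 held 9.52% of KO and 36.6% of WT members, where it held 7.20% of all KO and 23.6% of all WT macrophages, and members were 21.9% and 20.6% of it. Plac8 made up most of this sum in members, so the overlap is mainly one with cells high in Plac8. KO members held 1836 UMIs of Plac8 and 452 of Ly6c2, and WT members 3699 and 403. The interferon set by Isg15, Ifit2, Ifit3 and Rsad2 held 9.83% of KO and 27.2% of WT members, where it held 8.49% of all KO and 22.2% of all WT macrophages, and members were 19.2% and 16.2% of it. The set by Il1rn, Clec4e, Nlrp3 and Cxcl2 held 20.9% of KO and 11.9% of WT members, where it held 18.6% of all KO and 11.0% of all WT macrophages, and members were 18.7% and 14.2% of it. Each of the last 3 sets was thus split between the libraries in the same direction in members as in all macrophages.

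KO members were then set against WT members, outside the genes of the rule. Of 2775 genes past the filter, 90 (3.24%) were at least 1.5-fold higher and 72 (2.59%) at least 1.5-fold lower in KO members. With median-of-ratios scaling, which shifted the log2 ratios by 0.08, these were 61 and 94 genes. In other macrophages 49 (1.77%) of the same genes were at least 1.5-fold higher and 57 (2.05%) at least 1.5-fold lower in the KO library. The lists shared 31 higher and 50 lower genes, and 1 gene, Mgp, was past the fold in opposite directions. The median log2 ratio over all tested genes was 0.06 in members and 0.05 in other macrophages.

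Interferon-induced genes were lower in KO members throughout. All 21 listed genes past the filter had a ratio below 1, and 17 were at least 1.5-fold lower (background 2.59%), with a median log2 ratio of -1.20. Of the 21, Ifit3b, Ifi44, Ifit1, Cmpk2, Mx1, Usp18, Isg20 and Gbp2 reached 50 CPM in WT members alone, so their ratio had to be below 1. In other macrophages 17 of the same 21 were at least 1.5-fold lower, with a median of -0.996. Isg15, a ubiquitin-like modifier, had 394 CPM in KO and 981 CPM in WT members (ratio 0.401, 0.384 to 0.420), against 367 CPM in KO and 798 CPM in WT other macrophages. The antiviral gene Ifit3 had 117 CPM in KO and 362 CPM in WT members, against 107 and 257 CPM. Ifit3b, the lowest ratio of the list, had 22.2 CPM in KO and 93.6 CPM in WT members (ratio 0.237, 0.198 to 0.282); it is a near copy of Ifit3, and reads shared by both could have been split by the authors' counting. Irf7, which encodes a factor that amplifies interferon transcription, had 289 CPM in KO and 590.2 CPM in WT members. The sum of the list per 10000 UMIs had a median of 22.96 in KO and 46.9 in WT members, against 17.5 and 33.1 in other macrophages, so members stood above other macrophages in both libraries.

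Among the other genes of the 12 lowest ratios, the GTPase gene Iigp1 had 52.2 CPM in KO and 149.9 CPM in WT members, the surface protein gene Ly6a 467 and 1275 CPM, and Ifi208 15.4 and 60.9 CPM. Ifi208 reached 50 CPM in WT members alone, so its ratio had to be below 1. Plac8 had 227 CPM in KO and 711 CPM in WT members (ratio 0.320, 0.302 to 0.338). In other macrophages Plac8 had 99.8 CPM in the KO and 398 CPM in the WT library. Genes of class I presentation were lower too: all 11 past the filter had a ratio below 1 and 5 were at least 1.5-fold lower (background 2.59%), against 3 of the same 11 in other macrophages, with median log2 ratios of -0.52 in members and -0.43 in other macrophages. The 5 included H2-T23 with 179.8 CPM in KO and 339 CPM in WT members. The class I heavy chain gene H2-K1 had 1531 CPM in KO and 2115 CPM in WT members, below the 1.5-fold bound. Class I genes are near copies of each other, so their single values are uncertain.

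Inflammatory genes were higher in part. Of 16 past the filter, 13 had a ratio above 1 and 6 were at least 1.5-fold higher (background 3.24%) and none at least 1.5-fold lower, against 7 higher and 1 lower of the same genes in other macrophages. Cxcl3 and Ptgs2 among the 6, and also Clec4e and Nlrp3 among the 13, reached 50 CPM in KO members alone. Their ratio had to be above 1. The neutrophil attractant gene Cxcl1 had 195 CPM in KO and 69.4 CPM in WT members (ratio 2.81, 2.51 to 3.16), and Cxcl3 56.5 and 17.9 CPM (3.16, 2.52 to 3.99). The cytokine gene Il1b had 217 CPM in KO and 107 CPM in WT members, the prostaglandin synthase gene Ptgs2 56.3 and 31.1 CPM, the feedback inhibitor gene Socs3 165 and 81.9 CPM, and Tnfaip3, which restrains NF-kB signalling, 107 and 59.2 CPM. Cxcl2, the most abundant gene of the list, had 3095 CPM in KO and 2097 CPM in WT members, just under the bound. Cxcl10, an interferon-induced chemokine gene, had 265 CPM in KO and 374 CPM in WT members.

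The C-type lectin gene Mgl2, a galactose-type lectin gene like Clec10a, ranked first among the genes higher in KO members. It had 103 CPM in KO and 33.6 CPM in WT members (ratio 3.07, 2.61 to 3.64), against 32.5 and 14.7 CPM in other macrophages. Mgl2 reached 50 CPM in KO members alone, so its ratio in members had to be above 1. Clec10a itself was even between the libraries (ratio 1.05, 0.974 to 1.13). Mgl2 and Clec10a are close paralogs, and reads shared by both could have been split by the counting. The fractalkine receptor gene Cx3cr1 had 193 CPM in KO and 86.1 CPM in WT members, against 291 and 180.2 CPM in other macrophages. The membrane protease gene Mmp14 had 73.0 CPM in KO and 26.3 CPM in WT members, the adhesion molecule gene Vcam1 78.0 and 34.0 CPM, and Thbs1, which encodes thrombospondin 1, 171 and 79.6 CPM. Mmp14 and Vcam1 reached 50 CPM in KO members alone, so their ratio had to be above 1. The log2 ratio of Thbs1, 1.10, was 0.36 without F13a1 in the sum that chose the members, below the 1.5-fold bound. The Notch target gene Hes1 had 247 CPM in KO and 106 CPM in WT members (ratio 2.34, 2.13 to 2.58), against 399 CPM in KO and 490.5 CPM in WT other macrophages.

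Mgp, which encodes a matrix protein of stromal cells, had 96.4 CPM in KO and 31.5 CPM in WT members, against 88.9 CPM in KO and 166 CPM in WT other macrophages. One KO member held 73.2% of all Mgp UMIs of the KO members, and the log2 ratio of 1.61 became -0.34 without the macrophages that held at least 10 UMIs of fibro-adipogenic genes, a filter chosen after the values were seen. A single KO member held 51.2% of the UMIs of Igfbp7, whose log2 ratio of 1.25 became 0.12 under that filter. The collagen genes Col1a1 and Col1a2 ranked among the 12 highest as well, with 98.8 and 73.3 CPM in KO members and 35.0 and 32.5 CPM in WT members, all under 2 times the level that free RNA of the same library could give. Mgp, Igfbp7, Col1a1 and Col1a2 reached 50 CPM in KO members alone, so their ratio in members had to be above 1. Over the whole fibro-adipogenic list, the summed level was 407 CPM in KO and 224 CPM in WT members, against 1166 and 561 CPM in other macrophages. It reached 297 UMIs in 1 cell among KO members and 17 UMIs among WT members, and 35 KO and 3 WT members held at least 10 UMIs of it. The defining gene Pdgfra had 1 UMI in KO and 1 UMI in WT members, as the rule allowed. Without the cells over 10 UMIs, 86 genes were higher and 73 lower in KO members. The log2 ratios of Mgl2, Cxcl3, Cxcl1, Mmp14, Hes1, Cx3cr1, Vcam1 and Thbs1 then lay between 0.98 and 1.77, and those of the 12 lowest genes between -2.09 and -1.29.

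**Figure D4:**
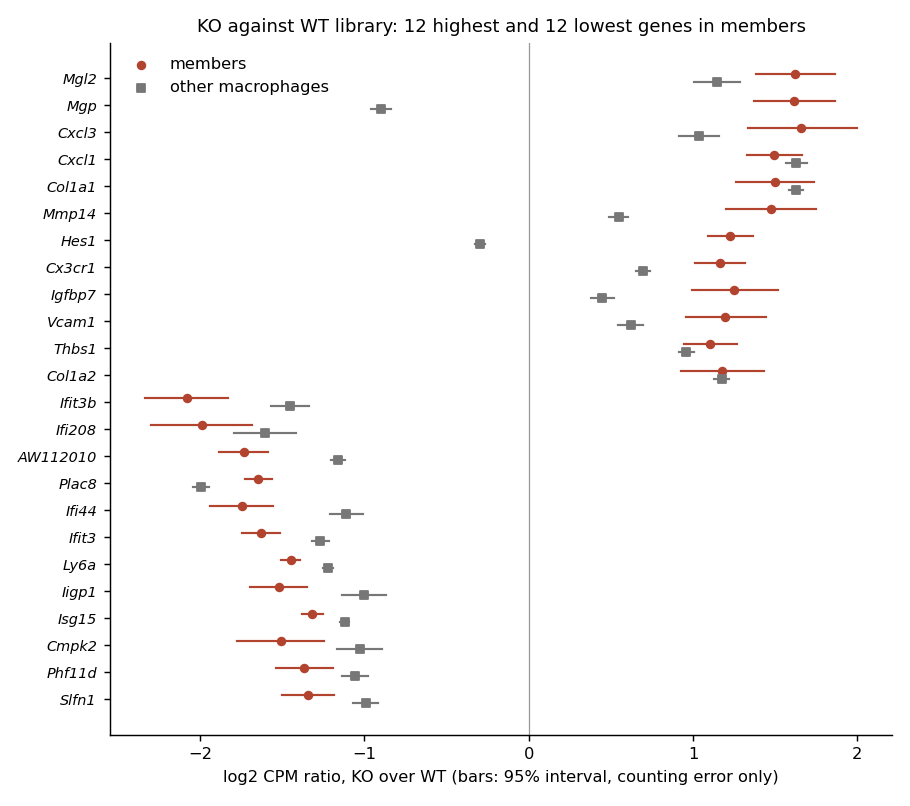
Log2 CPM ratio of the KO over the WT library (x axis, bars are 95% intervals of counting error only) for the 12 highest and 12 lowest ranked genes in members (red circles), with the ratio in other macrophages (grey squares). Ratios in other macrophages lie on the same side of 0 except for Mgp and Hes1.

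Beyond Mgp and Hes1, the KO/WT ratio of members stood highest above that of other macrophages for Rgs1, Ly6c2 and Hilpda. The signalling regulator gene Rgs1 had 173 CPM in KO and 82.9 CPM in WT members, against 467 and 440.2 CPM in other macrophages. The lipid droplet gene Hilpda had 81.3 CPM in KO and 36.7 CPM in WT members, against 111 and 96.7 CPM. Ly6c2 had a KO/WT ratio of 0.722 in members, against 0.357 in other macrophages. The lowest were Fabp4, Lpl, Stmn1, Ifi44 and AW112010. The fatty acid binding protein gene Fabp4 had 77.9 CPM in KO and 124 CPM in WT members, against 192 and 174 CPM in other macrophages, and the lipoprotein lipase gene Lpl 135 and 177 CPM, against 226 and 193 CPM. The intervals of these ratios of ratios did not include 1, which covers counting error in 1 library per genotype only. On the log2 scale the difference of AW112010, -0.57, was -0.035 in the top 10%, and that of Fabp4, -0.81, was -0.21 without Folr2 in the sum.

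Tissue-resident genes were mostly even between the libraries. Of 16 past the filter, 1 was at least 1.5-fold higher in KO members and none at least 1.5-fold lower, with a median log2 ratio of 0.13. The one was the Fc receptor-like gene Fcrls, with 811 CPM in KO and 483 CPM in WT members, against 386 and 193 CPM in other macrophages. Ccl8 had a ratio of 0.915 and Gas6 of 1.16. Several scarce resident genes were higher in KO members on few cells: Vsig4 had 15.1 CPM in KO and 2.88 CPM in WT members from 13 KO and 5 WT cells, and the lectin gene Cd209f 28.4 and 9.61 CPM from 19 and 8 cells. The scavenger protein gene Cd5l had 15.97 CPM in KO and 2.31 CPM in WT members from 68 KO and 8 WT cells, against 21.1 and 20.3 CPM in other macrophages. These 3 genes were below the filter and were chosen after their values were seen.

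Markers of other cell types were scarce in members apart from the fibro-adipogenic list. The T and NK cell list summed to 2.35 CPM in KO and 2.88 CPM in WT members, and the neutrophil list to 47.7 and 44.6 CPM, with Csf3r the main contributor at 40.9 and 38.3 CPM. The dendritic cell list summed to 28.7 CPM in KO and 21.1 CPM in WT members, against 36.9 and 42.2 CPM in other macrophages. The B cell list summed to 20.4 CPM in KO and 16.9 CPM in WT members, against 22.5 and 15.6 CPM in other macrophages. Its genes Cd79a, Pax5 and Jchain were at 0 UMIs in members of both libraries. The platelet, mast cell and erythroid list summed to 24.8 CPM in KO and 129.8 CPM in WT members, where 1 WT member held 379 of its UMIs.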

How the data were processed

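UMI counts per gene and barcode were deposited by the authors as unfiltered matrices, 1 per library. Per the submitters' processing notes, STARsolo 2.7.9a, STAR 2.7.8a, Seurat 4.0.1 and GRCm38 were used; the notes list no settings. Reads whose gene is ambiguous between near copies could have been lost or split at that step.

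From the counts, barcodes were filtered and members chosen as stated in the report. The members and all gene lists were chosen with earlier results of these data known. Counts were summed per library and class and scaled to counts per 1000000 (CPM), with exact Poisson intervals for levels, conditional binomial intervals for ratios and Clopper-Pearson intervals for shares. All are 95% intervals of counting error in 1 library per genotype. Genes needed 50 CPM in 1 sum and 50 UMIs. Genes of the rule were left out. Named genes were the 12 highest and 12 lowest in each comparison and the 5 at each end of the difference between members and other macrophages, ranked by the interval bound nearest 1. From each list, abundant members and those past the fold are named; genes named outside these rules were chosen after their values were seen. Shares of cells with a UMI are from cells thinned to 5000 UMIs unless stated otherwise. Free RNA was profiled in barcodes with 20 to 100 UMIs. Doublets were not removed in the main results. The interval script was tested on simulated data. Python 3.11.15, numpy 2.4.6, scipy 1.17.1, pandas 2.3.3, scanpy 1.11.5 and matplotlib 3.10.9 were used. Alternatives covered the UMI minimum, the share chosen, each marker left out, scaling, doublets, cells with RNA of other types and the low-count filter. A few genes of the lists are not reported here.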

Additional observations from a re-analysis of the deposited data

Results flagged for a closer look

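Mgp went in opposite directions between the libraries in the 2 classes of macrophage. Its KO/WT ratio was 3.06 in members and 0.536 in other macrophages, and the difference was not tested, since each genotype has 1 library. One KO member held 570 of the 779 Mgp UMIs of KO members. Mgp was found in 169 KO and 131 WT members. Of the 2 member sums, it reached 50 CPM in KO alone, so its ratio in members had to be above 1.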

How the results depend on the processing

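Each genotype has 1 library, so no setting speaks to replicate error, and no library could be left out. No paired analysis was possible because each genotype has 1 library and no test was made. The KO/WT ratio of the members' share, 1.25, was 1.07 at a minimum of 2000 UMIs, 1.57 at 10000 UMIs, and 1.11, 1.05 and 1.56 without F13a1, Mrc1 and Folr2 in the sum. Taking the top 15% within each library fixes both shares in advance, so its ratio of 1.00 says nothing about the share. With no CPM filter the genes higher and lower in members were 231 and 387, and those higher and lower in KO members 704 and 309. The Setdb1 ratio was 1.68 in the top 10%. The log2 KO/WT ratio of Mgp in members turned to -0.45 in the top 10%, -0.30 with the top 15% within each library, -0.083 and -0.26 without F13a1 and Cbr2 in the sum, -0.31 without the highest Scrublet scores, -0.36 without barcodes with 3 UMIs of other cell types, and -0.34 without barcodes with 10 fibro-adipogenic UMIs, an alternative chosen after seeing the data. Its ratio in members over that in other macrophages was -0.043 (log2) without the highest Scrublet scores. Igfbp7 was at -0.00065 without barcodes with 3 UMIs of other cell types, and Col1a2 at -0.20 when the sum was taken on thinned cells. The cause was not tested. Over all named genes and alternatives, 675 values stayed within the counting interval, 243 moved beyond it and 10 changed direction. Of the 675, 58 came from leaving out the CPM filter, which cannot change the ratio of a gene. Scrublet's own threshold marked 0 KO and 6 WT barcodes, so a fixed share was removed instead. Depth limits statements on scarce genes such as Timd4.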
